A study of Mus musculus with 8 samples.

Results

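The Grainyhead-like transcription factor genes Grhl1, Grhl2 and Grhl3 were followed in mouse back-skin epidermis. They are 3 of the 21690 gene identifiers in the deposited expression table, were chosen by name, and were all high enough to be tested. Of the 3, Grhl1 also had entries in the deposited table of splice junctions, 5 distinct junctions and introns of the 713 with a value there. The study asked how the epidermis responds to loss of ESRP1 and ESRP2, epithelial RNA-binding proteins that control alternative splicing. The 4 experimental libraries came from pups with the genotype K5rTA tetOCre Esrp1flox/flox; Esrp2-/-. The 4 control libraries came from pups with the genotype Esrp1flox/flox; Esrp2-/-, without the Cre transgene. Both groups carried the null Esrp2 alleles, and in both the dam was on high dox chow from embryonic day 17 until the pups were taken at postnatal day 5. Cre was driven by doxycycline through a keratin 5 transactivator, so deletion was directed to keratin 5 cells, and the floxed exons of Esrp1 are not named in the labels. Levels are in TPM, a value scaled to transcript length in which levels of different genes can be set side by side. An entry of 1 TPM or less is listed at 0 in the deposited table. The sequencing depth behind the values is unknown. The labels call the libraries biological replicates.

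Grainyhead-like proteins bind DNA as dimers through a domain shared with the CP2 factors, and they switch on genes of epithelial junctions, desmosomes and the cornified envelope. In mice, Grhl3 is needed for the skin barrier and for closure of the neural tube. Grhl1 is needed for normal anchoring of hair and for expression of the desmosomal cadherin Dsg1a, and Grhl2 is needed for neural tube closure and for epithelial junction genes such as Cdh1.

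The targeted gene separated the groups. Esrp1 had 65.0, 49.8, 75.6 and 66.5 TPM in experimental libraries 1 to 4, against 135, 131, 133 and 162 TPM in control libraries 1 to 4 (log2 change -1.13, limma adjusted p = 0.0112). Library numbers are names in table order and pair nothing. Esrp2, null by genotype in both groups, was above the 1 TPM floor in most libraries. It had 3.25 to 5.28 TPM in experimental libraries and 0 to 3.31 TPM in control libraries (limma adjusted p = 0.176), and which part of the gene these values come from was not examined. Keratinocyte markers summed to between 95212 and 133118 TPM in experimental libraries and between 76802 and 93848 TPM in control libraries. While 4 of 4 endothelial markers were listed at 0 in all 8 libraries, other cell types were present. Erythroid markers summed to 222 to 4178 TPM in experimental and 181 to 9583 TPM in control libraries. Langerhans cell and macrophage markers summed to 260 to 534 TPM in experimental and 187 to 751 TPM in control libraries. Fibroblast markers summed to at most 3.29 TPM in experimental and 29.6 TPM in control libraries. Experimental libraries 2 and 4 stood apart in their share of TPM from mitochondrially encoded genes, 18.2% and 17.5%. That share was 10.6% to 12.6% elsewhere.

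Grhl1 fell in the experimental epidermis and Grhl3 rose, while Grhl2 stayed low in both groups and did not pass the test. In a limma fit over 10682 genes with a mean of at least 1 TPM, 263 genes passed a Benjamini-Hochberg adjusted p of 0.05, which is 2.46% of those tested. An unadjusted p under 0.05 was reached by 1810 of the 10682, the background for the unadjusted counts of gene lists below. Rises made up 0.917% of the genes tested and falls 1.54%, or 98 and 165 genes. This balance depended on the scaling, with 283 rises and 102 falls when libraries were centred on their medians and 269 rises and 117 falls with quantile normalization. Grhl1 fell and Grhl3 rose under both. Of the 3 Grainyhead-like genes, 1 was among the rises and 1 among the falls.

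**Figure D1:**
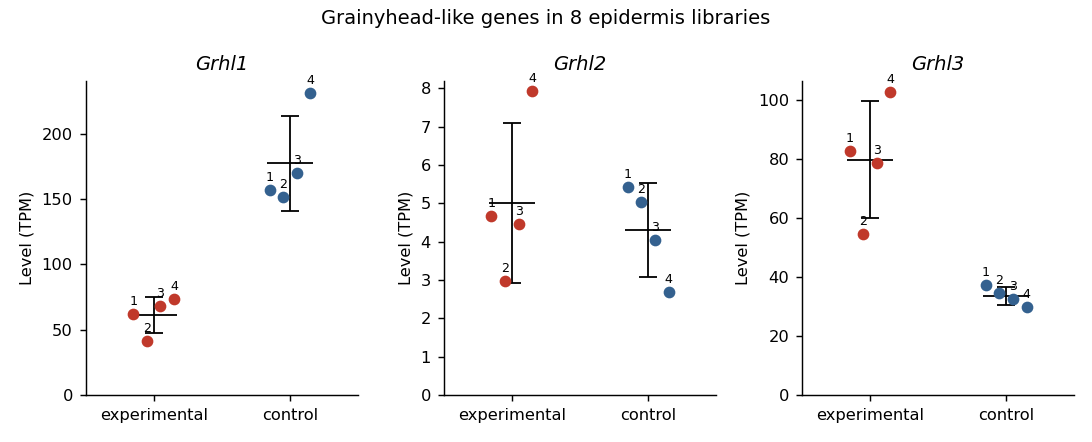
Level in TPM (vertical axis) of Grhl1, Grhl2 and Grhl3 in each experimental and control library. Points are libraries with their number, the long bar is the group mean and the whiskers are 1 SD (n = 4 each). Experimental libraries lie below all controls for Grhl1 (41.7 to 73.2 against 152 to 231 TPM) and above all controls for Grhl3 (54.7 to 103 against 29.9 to 37.3 TPM), and the groups overlap for Grhl2.

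Grhl1 (ENSMUSG00000020656.16, GRCm38 chromosome 12, 24572283 to 24617391, plus strand) had 62.4, 41.7, 68.1 and 73.2 TPM in experimental libraries 1 to 4, against 157, 152, 170.0 and 231 TPM in control libraries 1 to 4. Every experimental library was below every control, and control library 4 was the highest. The groups averaged 61.4 ± 13.8 TPM in experimental and 178 ± 36.5 TPM in control epidermis (SD, n = 4 each), a level 2.90-fold lower. On the log2(TPM + 1) scale the change was -1.53 (SE 0.22, 95% interval -2.02 to -1.04, limma adjusted p = 0.0077), and Grhl1 ranked 46 by p among all genes tested. An exact two-sided permutation test returned its lowest attainable p with 4 libraries a group, 0.0286. Of all genes tested, 12.6% had groups that did not overlap in either direction. In the authors' deposited table of their DESeq2 comparison, Grhl1 had a log2 fold change of -1.41 (SE 0.289, adjusted p = 5.37e-05). That table has 748 rows and none with a change above 0, and Grhl2 and Grhl3 have no row in it. No other annotated gene overlaps Grhl1 or Grhl3.

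Markers of other skin cells differed between the libraries too. The summed level of 11 hair follicle markers was 1489 to 11309 TPM in experimental libraries and 6146 to 47584 TPM in control libraries. All 11 had log2 changes below 0. None passed limma, 6 had an unadjusted p under 0.05, and 5 are among the falls of the authors' deposited table. The hair marker sums of the groups overlapped. Control library 4 had both the highest hair marker sum and the highest Grhl1. Experimental library 2 had the lowest of both, at 1489 TPM and 41.7 TPM. The order differed in other libraries: experimental library 1 had a hair marker sum of 11309 TPM and Grhl1 at 62.4 TPM. In control library 1 the values were 6146 TPM and 157 TPM. Without control library 4 the Grhl1 change was -1.40 (limma adjusted p = 0.00586). Without control libraries 3 and 4, which had the highest hair marker sums among the controls, it was -1.35 (limma adjusted p = 0.00694). Sebaceous markers summed to 50.5 to 97.8 TPM in experimental and 153 to 363 TPM in control libraries, and 2 of 5 tested fell. The 2 were Elovl3 (limma adjusted p = 0.0116) and Plin2 (limma adjusted p = 0.0498). This count was 0 without experimental libraries 2 and 4, 1 with median centring and 5 without control library 4. With all libraries, all 5 had an unadjusted p under 0.05, and they are among the falls of the authors' deposited table. Those sums were highest in control libraries 1 and 2, and without that pair the Grhl1 change was -1.71 (limma adjusted p = 0.0130). Basal cell and cell cycle markers summed to 103 to 278 TPM in experimental and 209 to 1568 TPM in control libraries, and 7 of 8 tested had log2 changes below 0. The 1 that passed was Krt15, a keratin of basal and hair bulge cells, named here after its values were seen. It had 48.9, 114.5, 169.9 and 97.7 TPM in experimental libraries 1 to 4, against 1323, 1124, 876 and 184 TPM in control libraries 1 to 4 (limma adjusted p = 0.0361). Krt15 alone made up most of the basal and cycle marker sum in every control library. Its call was lost without any single library other than control library 4 (log2 changes of -3.46 to -2.49 over the 8 omissions). Control library 4, the lowest of the controls in these markers, was the highest in Grhl1. In bulk tissue, fewer cells of a type and less RNA per cell cannot be told apart. Each fit with control libraries left out kept controls with high sums in at least 1 of these marker sets. Such fits therefore cannot separate cell make-up from the level of Grhl1. The part of hair, sebaceous and basal cells in the level of Grhl1 was not tested.

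Splicing of Grhl1 changed as well as its level. MAJIQ estimates for each junction a PSI (percent spliced in, given here as a fraction from 0 to 1), its share among the junctions that start or end at the same exon. It combined the libraries of each group, so these PSI values, taken from the authors' deposited table, have no error per library. The junction that joins exon 4 directly to exon 6 and leaves out exon 5 had a PSI of 0.632 in experimental and 0.008 in control epidermis when read from exon 4. Read from exon 6, its PSI was 0.731 in experimental and 0.009 in control epidermis. The junction into exon 5 from exon 4 had a PSI of 0.115 in experimental and 0.803 in control epidermis. The junction out of exon 5 to exon 6 had a PSI of 0.113 in experimental and 0.82 in control epidermis. Most Grhl1 splicing at exon 5 thus skipped the exon in experimental epidermis and included it in controls. The posterior probability that PSI differed by at least 0.15 was 1.0 for each of these junctions.

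Exon 5 is a coding exon of 77 bases at chr12:24582885-24582961 (GRCm38, plus strand). It is present in all 4 annotated Grhl1 transcripts, and the authors' deposited table marks the junction that skips it as absent from the annotation. The sequences below are shown because the change in splicing decides which of them the transcript carries. Each gives the last 30 bases of exon 4 and the first 30 bases of exon 6 from the GENCODE M21 transcript of 16 exons. Capitals mark exon 5 in the included form and the first in-frame stop codon in the skipped form.
Grhl1 with exon 5: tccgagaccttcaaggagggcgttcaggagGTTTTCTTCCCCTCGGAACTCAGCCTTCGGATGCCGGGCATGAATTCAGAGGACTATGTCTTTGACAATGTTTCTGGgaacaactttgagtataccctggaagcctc
Grhl1 without exon 5: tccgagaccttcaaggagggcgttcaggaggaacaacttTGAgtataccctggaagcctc

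Because 77 is not a multiple of 3, skipping exon 5 shifts the reading frame. Exon 5 begins after 223 whole codons of the 618 in the annotated reading frame. In the skipped form translation in frame reads 3 codons past the junction and meets TGA as codon 227, at chr12:24584314-24584316 in exon 6. The 226 codons read before it are 36.6% as many as the annotated 618. The stop codon lies 984 bases of spliced transcript before the last exon junction, with 10 junctions after it. These positions were read from the annotated transcript, and no protein was measured.

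All 3 Grainyhead-like genes share the exon plan around this exon. Each has 16 exons in its full-length transcript, and all 16 begin in the same reading phase in the 3 genes, while 6 have the same coding length. Exon 5 differs in length but starts at a whole codon and leaves 2 bases over in each gene, so its omission would shift the frame in each. The exon 5 sequences, 5′ to 3′ on the gene's own strand from GENCODE M21 (GRCm38), are shown in capitals to let the exons be compared.
Grhl1 exon 5, chr12:24582885-24582961, plus strand: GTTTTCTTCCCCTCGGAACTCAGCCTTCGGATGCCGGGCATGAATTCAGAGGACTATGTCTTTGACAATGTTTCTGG
Grhl2 exon 5, chr15:37287242-37287297, plus strand: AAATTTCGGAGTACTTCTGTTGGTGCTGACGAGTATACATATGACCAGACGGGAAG
Grhl3 exon 5, chr4:135556844-135556917, minus strand: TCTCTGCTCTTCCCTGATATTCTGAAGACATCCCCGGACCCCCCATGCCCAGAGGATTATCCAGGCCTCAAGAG
The exons are 77, 56 and 74 bases long in Grhl1, Grhl2 and Grhl3. Grhl2 and Grhl3 have no entry in the deposited junction table, as have the CP2 relatives, so no PSI of their exon 5 is given.

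A second event in Grhl1 lies towards the end of its coding sequence. Intron 12 (chr12:24609742-24611822, 2081 bases) was retained with a PSI of 0.596 in experimental and 0.344 in control epidermis (posterior probability 0.994). The spliced junction from exon 12 to exon 13 had a PSI of 0.398 in experimental and 0.651 in control epidermis (posterior probability 0.993). The intron was thus kept at an appreciable share in controls too, unlike the skipping of exon 5. In the authors' deposited table, 111 alternative intron events have a value for the intron itself. It was higher in experimental epidermis in 76 of them, and Grhl1 ranked 60 from the highest difference.

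**Figure D2:**
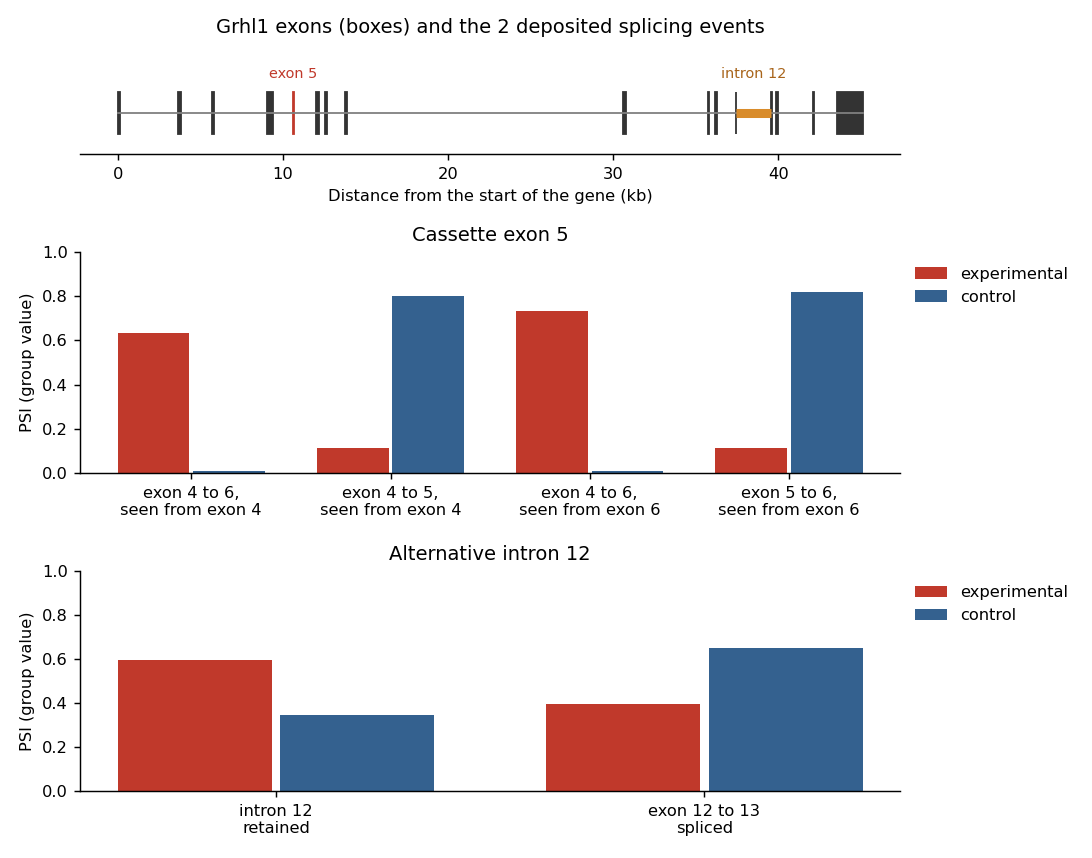
Map of the Grhl1 exons by distance from the start of the gene in kb (top), with exon 5 in red and intron 12 in orange, and the authors' PSI per group (vertical axes, 0 to 1) for the junctions around exon 5 (middle) and for intron 12 (bottom). Bars are single values for the combined libraries of a group and have no error. Skipping of exon 5 stands at 0.632 and 0.731 in experimental against 0.008 and 0.009 in control epidermis, and the intron 12 bars lie closer together, at 0.596 and 0.344.

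All 5 distinct Grhl1 junctions and introns reached a posterior probability of 0.95. So did 82.3% of the 713 listed, since the table holds mainly called junctions, and nothing particular to Grhl1 follows from that count. By its largest absolute change of PSI, 0.717, Grhl1 ranked 22 of the 236 genes with a value, whose median was 0.37. In 9 genes of the table, Grhl1 included, a cassette exon was skipped through a junction absent from the annotation. The PSI values of the listed junctions at exon 5 summed to 0.747 in experimental and 0.811 in control epidermis at exon 4. The rest belongs to junctions not listed there.

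Grhl3 (ENSMUSG00000037188.7, GRCm38 chromosome 4, 135541888 to 135573630, minus strand) had 82.9, 54.7, 78.9 and 103 TPM in experimental libraries 1 to 4, against 37.3, 34.5, 32.4 and 29.9 TPM in control libraries 1 to 4. Every experimental library was above every control. The controls lay close together, and the experimental libraries spread more widely, with library 4 highest and library 2 lowest. The groups averaged 79.8 ± 19.8 TPM in experimental and 33.6 ± 3.14 TPM in control epidermis (SD, n = 4 each), a level 2.38-fold higher. The log2 change was 1.20 (SE 0.20, 95% interval 0.75 to 1.65, limma adjusted p = 0.0156), and Grhl3 ranked 94 by p. The exact permutation p was again the smallest possible, 0.0286. The call was lost in limma without control library 3 (adjusted p = 0.0551) or without experimental library 1 (0.0504), 3 (0.0624) or 4 (0.0518), with log2 changes of 1.06 to 1.36 over all 8 single omissions. Keratinocyte marker sums were also higher in every experimental library (95212 to 133118 TPM) than in every control (76802 to 93848 TPM). These sums rest mainly on Krt1, Krt10, Krtdap, Flg and Lor, with group means of 11546 to 29083 TPM. Group means of Krt5, Krt14, Dsp and Ivl were 407 to 1884 TPM. Of 9 such markers tested, 6 had log2 changes above 0 and 3 below. The 3 below were Krt5 (-0.71), Krt14 (-0.14) and Dsp (-0.29). None of the 9 passed limma, and 3 of them were higher at an unadjusted p under 0.05. The part of keratinocyte content or differentiation in the level of Grhl3 was not tested.

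Grhl2 (ENSMUSG00000022286.16, GRCm38 chromosome 15, 37233036 to 37363569, plus strand) had 4.66, 2.98, 4.47 and 7.93 TPM in experimental libraries 1 to 4, against 5.43, 5.02, 4.04 and 2.67 TPM in control libraries 1 to 4. The groups overlapped, with the highest value in an experimental and the lowest in a control library. The means were 5.01 ± 2.08 TPM in experimental and 4.29 ± 1.23 TPM in control epidermis (SD, n = 4 each). The log2 change of 0.15 (SE 0.27, limma adjusted p = 0.794, exact permutation p = 0.657) had a 95% interval of -0.44 to 0.75. Its sign turned under 4 of the alternative settings. The start of Grhl2 overlaps an annotated antisense gene, and the sources used here do not state whether counting used strand, so reads from the pair may not be separable.

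Set side by side per length, the 3 genes changed order between the groups. In experimental epidermis Grhl3 was above Grhl1 in 4 of 4 libraries, by 1.16-fold to 1.41-fold. In control epidermis Grhl1 was above Grhl3 in 4 of 4 libraries, by 4.21-fold to 7.72-fold. Grhl2 was the lowest of the 3 in every library. These ratios combine the changes already given and were not tested again.

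Of the summed Grainyhead-like TPM, Grhl1 made up 41.6%, 42.0%, 45.0% and 39.8% in experimental libraries 1 to 4, against 78.6%, 79.4%, 82.3% and 87.6% in control libraries 1 to 4. Grhl3 made up 55.3%, 55.0%, 52.1% and 55.9% in experimental libraries 1 to 4, against 18.7%, 18.0%, 15.7% and 11.4% in control libraries 1 to 4. The shares varied less among the experimental libraries than the levels did: experimental library 2 had the lowest level of its group for all 3 genes but shares close to those of its group. Grhl2 made up 3.34 ± 0.646% in experimental and 2.08 ± 0.786% in control epidermis (SD, n = 4 each). The sum over the 3 genes was 146 ± 35.0 TPM in experimental and 215 ± 32.8 TPM in control epidermis, with every experimental library below every control.

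**Figure D3:**
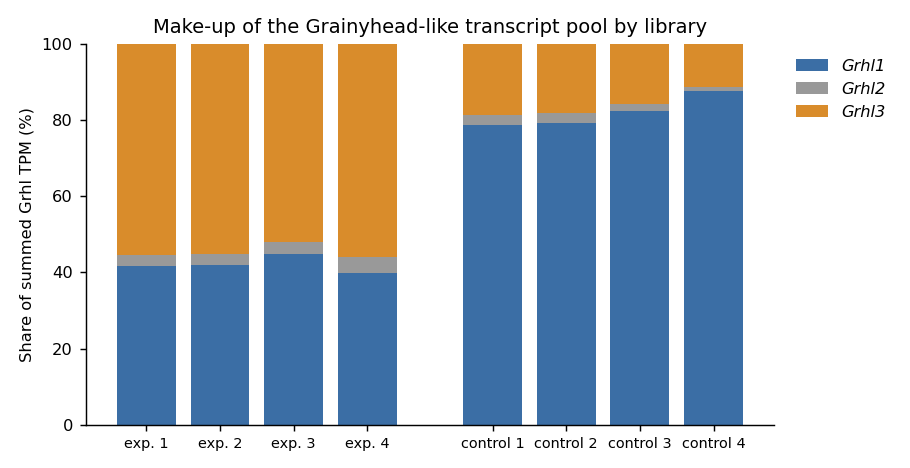
Share of the summed TPM of Grhl1, Grhl2 and Grhl3 (vertical axis, percent) taken by each gene in each library. Grhl1 takes 39.8% to 45.0% in the 4 experimental libraries and 78.6% to 87.6% in the 4 control libraries, and Grhl3 takes most of the remainder.

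The genes whose profile over the 8 libraries was most like that of each member were taken by the smallest root mean square difference of log2(TPM + 1), centred on each gene's mean, among 7306 genes with a mean of at least 5 TPM. Nearest to Grhl1 were Inf2, a formin that remodels actin (0.131), Rassf1, a Ras-association domain protein (0.148), Phyh, phytanoyl-CoA hydroxylase of peroxisomes (0.171), Pla2g4b, a cytosolic phospholipase A2 (0.173), and Plcd1, phospholipase C delta 1 (0.191). Inf2 had 8.83, 5.83, 9.01 and 9.90 TPM in experimental libraries 1 to 4, against 19.2, 23.0, 22.7 and 27.5 TPM in control libraries 1 to 4. Like Grhl1, it was lowest in experimental library 2 and highest in control library 4. The measure includes the difference between the groups, so the nearest genes share the change of their member by selection.

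Nearest to Grhl3 were Cyp3a13, a cytochrome P450 (0.151), Il1f5, the antagonist of the interleukin 36 receptor (0.164), Gm11992 (0.178), Pglyrp3, a peptidoglycan recognition protein (0.189), and Asah2, neutral ceramidase (0.211). Il1f5 was abundant, with 810, 720.1, 920 and 950.4 TPM in experimental libraries 1 to 4, against 420, 373, 347 and 390 TPM in control libraries 1 to 4. Cyp3a13 averaged 9.07 TPM in experimental and 3.61 TPM in control epidermis. Nearest to Grhl2 were Map3k11, a mixed-lineage kinase (0.114), Cop1, a ubiquitin ligase (0.115), Pfkp, a phosphofructokinase (0.120), Alas1, which starts haem synthesis (0.130), and Aggf1, an angiogenic factor (0.139). None of these 5 passed limma, which follows from their selection for likeness to a gene that did not pass.

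The CP2 relatives of the family did not pass the test, adjusted or unadjusted. Ubp1 averaged 5.85 ± 1.65 TPM in experimental and 6.87 ± 1.66 TPM in control epidermis (limma adjusted p = 0.667). Tfcp2 averaged 1.78 ± 0.755 TPM in experimental and 2.62 ± 0.483 TPM in control epidermis (SD, n = 4 each, limma adjusted p = 0.345). Tfcp2l1 was listed at 0 in all 8 libraries.

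Genes that act upstream of the Grainyhead-like factors or together with them, among them Trp63, Lmo4 and the planar cell polarity genes Vangl2, Celsr1 and Scrib, gave 0 of 10 past the test in limma (2 at an unadjusted p under 0.05). An unadjusted p under 0.05 was reached by 1810 of all 10682 genes tested. Of the 10 listed genes, 2 had log2 changes above 0 and 8 below, with a median of -0.31 beside -0.18 over all genes tested. Celsr1, a cadherin of the planar polarity pathway, had the lowest p. It had 8.45, 6.59, 14.4 and 10.2 TPM in experimental libraries 1 to 4, against 23.1, 18.1, 13.5 and 17.2 TPM in control libraries 1 to 4 (limma adjusted p = 0.115). In the authors' deposited table Celsr1 is listed with a log2 fold change of -0.677 and an adjusted p of 0.0482. Ptk7, a receptor of the same pathway, averaged 8.09 ± 2.59 TPM in experimental and 14.9 ± 6.68 TPM in control epidermis (SD, n = 4 each, limma adjusted p = 0.246). Without control libraries 3 and 4, a fit in which 2595 genes passed, 4 of the 10 fell, among them Celsr1 (limma adjusted p = 0.0313) and Ptk7 (limma adjusted p = 0.0293). Scrib, a polarity scaffold that cooperates with Grhl3 in mice, differed in splicing: a cassette exon was included with a PSI of 0.773 in experimental and 0.055 in control epidermis from 1 side and 0.908 in experimental and 0.144 in control epidermis from the other, per the authors' deposited table.

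Of the known targets of Grainyhead-like factors, 13 of 15 were tested, and 1 fell. That gene was Esrp1, which the experiment deleted. The median log2 change of the 13 was -0.06, with 5 above and 8 below 0. Spint1, a membrane protease inhibitor, had 77.0, 45.1, 63.6 and 60.2 TPM in experimental libraries 1 to 4, against 77.5, 75.3, 78.6 and 131 TPM in control libraries 1 to 4 (limma adjusted p = 0.272). The groups overlapped through experimental library 1. The following 3 targets were picked after their values were seen, as the best known of the list. Cdh1, E-cadherin, averaged 188 ± 33.3 TPM in experimental and 190.4 ± 19.1 TPM in control epidermis. Tgm1, the transglutaminase that cross-links the cornified envelope, averaged 187 ± 34.5 TPM in experimental and 189.7 ± 62.4 TPM in control epidermis. Dsg1a, a desmosomal cadherin, averaged 302 ± 64.1 TPM in experimental and 344 ± 30.4 TPM in control epidermis (SD, n = 4 each), and none of the 3 passed limma. Epcam, an epithelial adhesion protein, has deposited junctions, as do Scrib and the deleted Esrp1 among the listed genes: an intron of Epcam had a PSI of 0.279 in experimental and 0.024 in control epidermis.

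**Figure D4:**
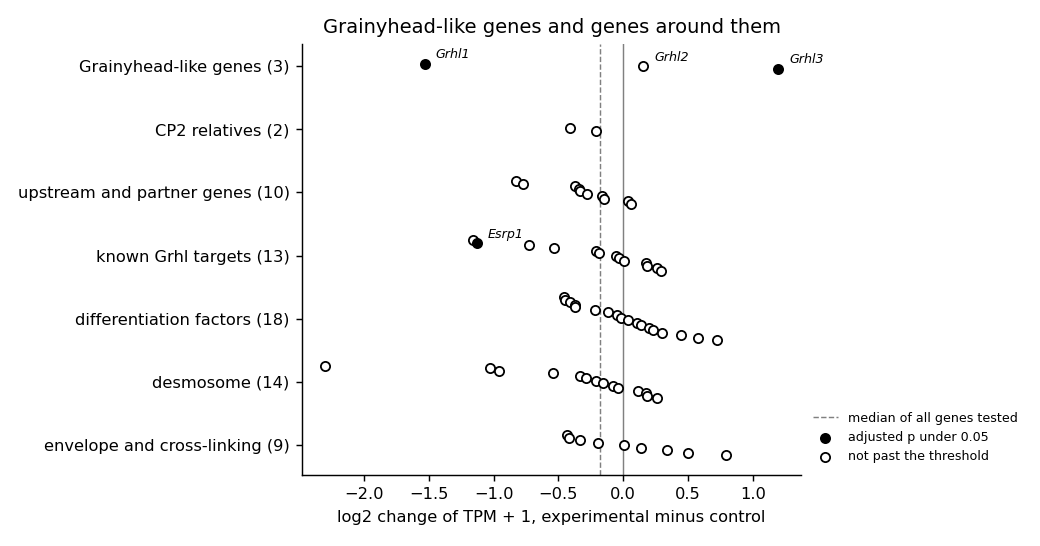
log2 change of TPM + 1, experimental minus control (horizontal axis), for the 3 Grainyhead-like genes and for each tested gene of 6 lists around them. Filled points have a limma adjusted p under 0.05, and the dashed line is the median of all genes tested, -0.18. Outside the family the filled point is Esrp1.

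Transcription factors of epidermal differentiation gave 0 of 18 past limma (4 at an unadjusted p under 0.05), with 9 above and 9 below 0 and a median of 0.01. Elf3, an epithelial ETS factor, had the lowest p, with 6.01, 6.65, 7.97 and 9.48 TPM in experimental libraries 1 to 4, against 4.21, 3.87, 5.01 and 3.43 TPM in control libraries 1 to 4. The groups did not overlap, as in 12.6% of all genes tested, and Elf3 missed the threshold (limma adjusted p = 0.074). It passed when libraries were centred on their medians (limma adjusted p = 0.0143). Centring shifts all changes upward, with the median gene going from -0.18 to 0.03. Gata3, a factor of hair and epidermal lineages, averaged 68.0 ± 2.84 TPM in experimental and 95.3 ± 21.6 TPM in control epidermis (SD, n = 4 each, limma adjusted p = 0.230). Its groups did not overlap either, and with centring its limma adjusted p was 0.638.

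Of 14 desmosome genes none passed limma (2 at an unadjusted p under 0.05), with 4 above and 10 below 0 and a median of -0.18, the same as over all genes. Dsg4, the desmoglein of the hair shaft, had 7.82, 1.02, 3.93 and 4.38 TPM in experimental libraries 1 to 4, against 10.9, 13.4, 21.9 and 69.4 TPM in control libraries 1 to 4 (limma adjusted p = 0.066). Its control values follow the hair marker sums in that library 4 is highest. In the authors' deposited table Dsg4 has a log2 fold change of -2.77 and an adjusted p of 0.00355. Pkp3, a plakophilin of the desmosomal plaque, averaged 107 ± 29.9 TPM in experimental and 206 ± 48.6 TPM in control epidermis (SD, n = 4 each, limma adjusted p = 0.084). The groups did not overlap for Dsg4 or for Pkp3, as in 12.6% of all genes tested.

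Of 9 genes of the cornified envelope and its cross-linking none passed limma (2 at an unadjusted p under 0.05), with 5 above and 4 below 0 and a median of 0.01. Ivl, involucrin, had 548, 707, 681 and 924 TPM in experimental libraries 1 to 4, against 406, 381, 463 and 377 TPM in control libraries 1 to 4. The groups did not overlap, as in 12.6% of all genes tested. The limma adjusted p was 0.065, or 0.031 with libraries centred on their medians, a scaling that shifts all changes upward. Tgm5, another transglutaminase, averaged 15.6 ± 2.24 TPM in experimental and 21.4 ± 2.01 TPM in control epidermis (SD, n = 4 each, limma adjusted p = 0.213). Its groups did not overlap either. The median of these envelope genes depended on the scaling, at -0.21 with quantile normalization and 0.22 with centring, and that of the known targets turned to 0.07 and 0.16.

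A Grainyhead-like binding motif was searched in RefSeq promoters of 300 bases (GRCm38.p6), which hold 3 promoters of the members, from Grhl1 and Grhl3. The motif AACCNGTT, read on both strands, is present in 686 of 32851 promoters (2.09%) and in 0 of these 3. Among the known targets it is in 1 of 9 promoters, that of Rab25, a small GTPase of epithelial membrane traffic. Its window at 102 bases before the start site is shown for its match, in capitals.
Rab25 promoter, motif at chr3:88548374-88548381, minus strand: agcagacacctAACCTGTTtaacctgtctg
Rab25 averaged 417 ± 38.8 TPM in experimental and 342 ± 54.2 TPM in control epidermis (SD, n = 4 each, limma adjusted p = 0.423). The match is a description of letters in this window.

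The fall of Grhl1 and the rise of Grhl3 kept their direction under all 20 alternative settings. Grhl1 passed in 19 of them, with log2 changes of -1.71 to -1.23. Grhl3 passed in 15, and its log2 changes over all 20 were 1.06 to 1.41. Neither passed without experimental libraries 2 and 4, which had the highest mitochondrial shares. In that fit 15 genes passed in all, and Grhl1 was at -1.41 (limma adjusted p = 0.0975) and Grhl3 at 1.25 (limma adjusted p = 0.0740).

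**Figure D5:**
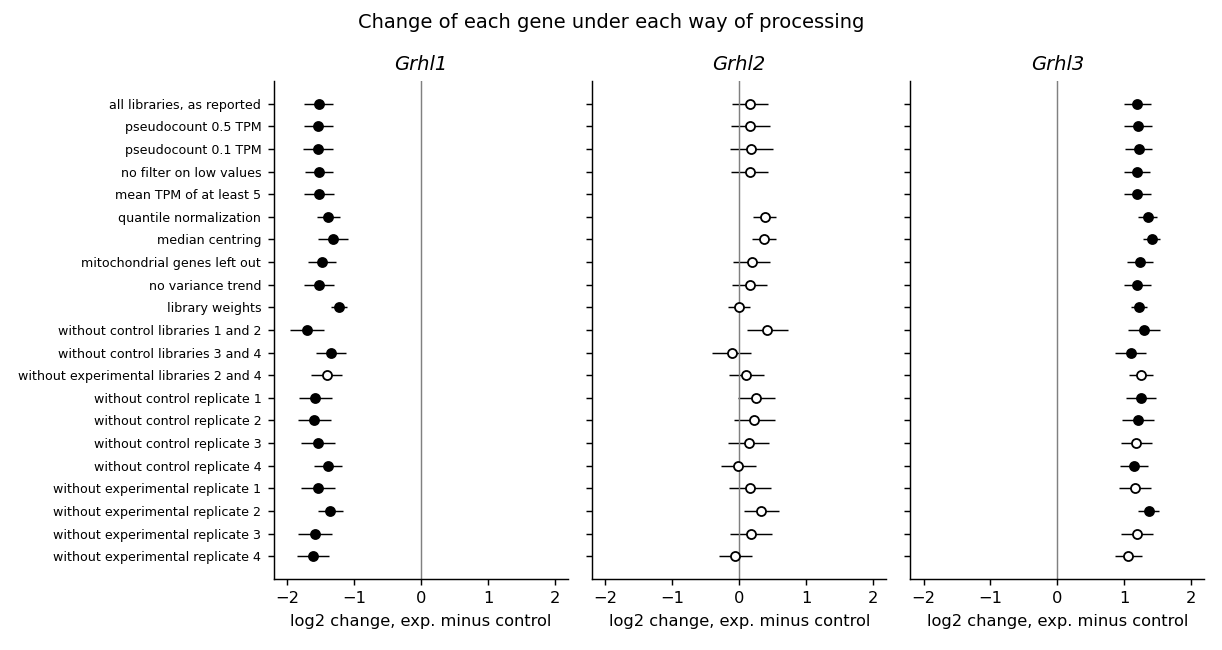
log2 change, experimental minus control (horizontal axis), of Grhl1, Grhl2 and Grhl3 with all libraries and under each alternative setting (rows). Points are estimates, whiskers are 1 SE, and filled points have an adjusted p under 0.05 in limma. Every estimate lies below 0 for Grhl1 and above 0 for Grhl3, while those of Grhl2 lie on either side of 0.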

How the data were processed

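RNA of pup epidermis was measured in 8 libraries. Per the labels' protocols, RNA was purified with an RNeasy kit and libraries were made with a NEBNext Ultra kit. Tools listed in the submitters' processing notes, with no roles, are STAR, Salmon 0.14.0, SAMtools 1.9 and DESeq, and builds are GRCm38 and mm10. The expression table holds log2 values of TPM, deposited by the authors without batch correction. They were taken to be log2 TPM in which levels up to 1 TPM are set to 0, since the ratio of the authors' mean counts per kilobase to TPM was then flat (0.921 to 1.004 of the highest bin), against 1.505 in the lowest bin when read as log2(TPM + 1). The authors' deposited DESeq2 table gives a mean normalized count signal, a log2 fold change (experimental over control by its sign at Esrp1), a Wald score and p-values. The authors' deposited MAJIQ table gives PSI as a fraction, the expected difference, and a posterior probability as a score, with libraries combined; repeated junctions were counted once.

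The planned test assumed log2(TPM + 1), so values were turned back to TPM, set to at least 1 and transformed with a pseudocount of 1. This understates changes of low genes. limma 3.58.1 (R 4.3.3) was fitted on all genes with a mean of at least 1 TPM, with group as the only term, a variance trend and Benjamini-Hochberg adjustment, two-sided. The fit was also run on simulated data with independent noise for each gene. Those data lack shifts of whole libraries, so they do not measure error rates here. Exact permutation tests used scipy 1.17.1 (Python 3.11.15, pandas 2.3.3, numpy 2.4.6), and plots matplotlib 3.10.9. TPM keeps no depth, so no counting interval could be given.

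The members and gene lists were chosen with earlier results of these data known. Named genes were the members, the CP2 relatives, Esrp1 and Esrp2, of each list the passing genes or the 2 of lowest p, and the 5 most similar profiles per member. Alternatives were other pseudocounts (0.5 and 0.1 TPM), filters, scalings, no trend, library weights, leaving out libraries, and other MAJIQ thresholds. Exons and transcripts are from GENCODE M21, whose exon ends the deposited Grhl1 junctions match.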

Additional observations from a re-analysis of the deposited data

Results flagged for a closer look

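The experimental and the control group of each of 31 genes compared in the text by their levels were searched. In 4 genes a group had 1 library far from the other 3 by Dixon's criterion. Chance meets that criterion in about 1 in 20 groups, so a few such groups would arise by chance among those searched. The highest control value of Esrp1 was 162.0 TPM (library 4), against 130.9 to 135.4 TPM in the other controls. The highest control value of Spint1 was 130.7 TPM (library 4), against 75.3 to 78.6 TPM in the other controls. The highest control value of Tgm1 was 283.1 TPM (library 4), against 154.8 to 163.3 TPM in the other controls. The lowest control value of Tgm5 was 18.39 TPM (library 3), against 22.15 to 22.59 TPM in the other controls. Grhl1, Grhl2 and Grhl3 had no such library in either group.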

How the results depend on the processing

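Grhl1 and Grhl3 kept their direction under every alternative run. Without experimental libraries 2 and 4, Grhl1 was at -1.41 (limma adjusted p = 0.0975) and Grhl3 at 1.25 (0.0740), and neither passed. Leaving out 1 library at a time gave -1.62 to -1.36 for Grhl1, -0.057 to 0.33 for Grhl2 and 1.06 to 1.36 for Grhl3. Grhl3 passed in 4 of these 8 fits. Grhl2 passed in no fit and turned to -0.0022 with library weights, -0.11 without control libraries 3 and 4, -0.01 without control replicate 4 and -0.057 without experimental replicate 4. It was below the filter at a mean of at least 5 TPM. The cause was not tested.

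The number of genes past the threshold, 263 (98 higher, 165 lower), was 4423 with library weights, 544 without control libraries 1 and 2, 2595 without control libraries 3 and 4, 15 without experimental libraries 2 and 4, and 85 to 578 with 1 library left out. Quantile normalization gave 269 higher and 117 lower, and median centring 283 higher and 102 lower. The median gene was at -0.18 as deposited, 0.02 with quantile normalization and 0.03 with centring. Centring put Grhl1 at -1.32 (limma adjusted p = 0.0163) and Grhl3 at 1.41 (0.00173). Ubp1 turned to 0.025 with quantile normalization and 0.046 without control libraries 1 and 2. Requiring an absolute PSI difference of at least 0.3 left 3 of the 5 Grhl1 junctions and introns; a probability of at least 0.99 left 5. Over the other named genes and settings, 466 values kept their call, 27 gained it, 47 lost it and 18 turned sign. Those turns were in genes with no call. Cdh1 went to 0.065 with quantile normalization, 0.18 with centring, 0.011 without mitochondrial genes, 0.016 with library weights, 0.084 without control libraries 1 and 2 and 0.16 without experimental libraries 2 and 4. Tgm1 went to -0.22 without control libraries 1 and 2, and Dsg1a to 0.00095 with centring. Single omissions gave -0.11 to 0.097 for Cdh1 and -0.074 to 0.21 for Tgm1. No paired analysis was possible because the table's columns carry no replicate number of the labels. TPM keeps no depth, so its limit on low genes such as Grhl2 is unknown.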

Other observations

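The mean Grhl1 level multiplied by the PSI of exon 5 inclusion was 7.06 TPM (read from exon 4) and 6.93 TPM (read from exon 6) in experimental epidermis, and 143 and 146 TPM in control epidermis. These products combine a mean over libraries with a PSI of the combined group, so they have no error and were not tested.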
